A study of Mus musculus with 13 samples.

Results

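Hemidesmosomes are the junctions that rivet the base of an epithelial cell to its basement membrane. Their receptor is the integrin of the chains ITGA6 and ITGB4, which binds laminin-332 (LAMA3 and LAMB3 among its chains) outside the cell and the plakins plectin and dystonin inside it. Collagen XVII (COL17A1) spans the membrane beside the integrin, and collagen VII (COL7A1) forms the anchoring fibrils that tie the basement membrane to the stroma. Laminin alpha 5 (LAMA5) and the heparan sulfate proteoglycans agrin (AGRN) and perlecan (HSPG2) belong to the basement membrane itself. In the cornea, hemidesmosomes join the outer epithelium to its basement membrane, while the endothelium on the inner face rests on Descemet's membrane, a thick sheet rich in collagen VIII.

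The genes described here are 9, of 54232 Ensembl genes in the deposited table. They were chosen by name and by no filter on their values, but with earlier results of these data known. The 9 are Lama3, Lamb3, Lama5, Itga6, Itgb4, Col17a1, Col7a1, Agrn and Hspg2. They were followed through 13 RNA-seq libraries of C57BL/6 mouse cells in 6 groups. Mouse embryonic fibroblasts (E13.5) were the starting cells (D0, 3 libraries), and day 7 (D7, 3 libraries) and day 12 (D12, 2 libraries) of a chemical conversion are labelled as induced neural crest cells. Induced corneal endothelial cells, themselves made from such fibroblasts, are labelled P1 or P8, with 2 libraries of each. A single library, pCEC, is of primary corneal endothelial cells taken at postnatal day 30. The labels name no compound, do not expand P1 and P8, and do not give the origin of replicates. The p-values therefore rest on library-to-library spread that may be technical. Levels are FPKM, fragments per kilobase of transcript, scaled to library size. Differences are log2 fold changes of FPKM + 1 with their standard error (SE), tested with limma in 1 fit over all 13 libraries and 17194 genes. Calls needed an adjusted p (Benjamini-Hochberg) under 0.05 and a log2 fold change of 1 or more in size, and all 9 genes were tested. For genes near 0, the added 1 makes fold changes too small.

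The columns of each group other than D0 follow a line order of their own in the deposited table, so the gene of each of their values was inferred from the line order and from whole read numbers, as set out under the processing. All 9 genes were placed in every group, with reads within 8.6e-06 of a whole number in every library. Whole reads, within 0.001, were part of the placement rule, so this distance is no independent check of it. The smallest library, P1 replicate 2, held 9997865 reads and the largest, D0 replicate 2, 24030674 reads. P8 replicate 2 stood apart from its group. Across the tested genes, which are not independent, its Spearman's rho was 0.763 with P8 replicate 1 and 0.918 to 0.92 with the D0 libraries. The summed level of 7 epithelial markers (Krt5, Krt14, Krt8, Krt18, Cdh1, Trp63 and Cldn4; Epcam was not placed) was 8160 FPKM in P8 replicate 1 and 23.4 FPKM in replicate 2, where Krt5 and Krt14 were listed at 0. Of 8 macrophage markers, the sum was 57.6 FPKM in P8 replicate 1 and 879 FPKM in replicate 2, and it was 1140 to 1210 FPKM in D0. Cd68 alone was 57.5 FPKM of the sum in P8 replicate 1, where 6 of the 8 were listed at 0. It stood at 48.3 FPKM in replicate 2. The pCEC library went against its label: Krt5 and Krt14, keratins of basal epithelium, stood at 676 and 644 FPKM there, while Col8a2 (a collagen of Descemet's membrane), Cdh2 and Aqp1 stood at 0.0619, 0.109 and 0.184 FPKM. Slc4a11, a solute transporter of the corneal endothelium, stood at 6.64 FPKM there. The libraries most like pCEC shared much of this. In P1 replicate 1, P1 replicate 2 and P8 replicate 1, Krt5 was at 2360, 2192 and 2382 FPKM. Krt14 was at 3533, 3569 and 3994 FPKM in the same libraries. Col8a2 was at 0, 0.3 and 0.026 FPKM in them, Cdh2 at 2.3, 2.5 and 0.015 FPKM, and Aqp1 at 5.0, 12.3 and 0.046 FPKM. Results that rest on P8 replicate 2 are therefore given with and without it. The spread between the P8 libraries enters the error of every comparison, and leaving out either one of them added the same calls in D7 against D0 and in both comparisons of P1 with D12 and D0. Directions drawn from pCEC are those of the library labelled pCEC.

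The stretch before the start is printed for genes near 0 in fibroblasts (Lamb3 and Col17a1) and for genes expressed there (Hspg2 and Agrn), so that their bases can be seen side by side. These were picked with their levels and motif counts known, so no difference between them is drawn. RefSeq (GRCm38.p6) held a window of 250 bases before to 50 bases after the start for 6 of the 9 genes, and Lama3, Itga6 and Itgb4 are named only. Capitals mark the E-box CAGGTG or CACCTG, which the repressors of epithelial genes Snail and Zeb bind, and the GC box GGGCGG or CCGCCC, which Sp factors bind, and neighbouring boxes can overlap. The AP-1 site TGANTCA was searched on both strands too. Windows of 4 genes are printed, and Lamb3 and Agrn each have a second listed start that is not.
Lamb3, chr1:193301744-193302043, plus strand: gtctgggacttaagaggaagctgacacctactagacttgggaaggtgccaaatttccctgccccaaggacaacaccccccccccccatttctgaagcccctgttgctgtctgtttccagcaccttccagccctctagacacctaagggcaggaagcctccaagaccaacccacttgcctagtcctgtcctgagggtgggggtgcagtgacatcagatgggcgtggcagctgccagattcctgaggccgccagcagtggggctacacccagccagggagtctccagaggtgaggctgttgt
Col17a1, chr19:47691993-47692292, minus strand: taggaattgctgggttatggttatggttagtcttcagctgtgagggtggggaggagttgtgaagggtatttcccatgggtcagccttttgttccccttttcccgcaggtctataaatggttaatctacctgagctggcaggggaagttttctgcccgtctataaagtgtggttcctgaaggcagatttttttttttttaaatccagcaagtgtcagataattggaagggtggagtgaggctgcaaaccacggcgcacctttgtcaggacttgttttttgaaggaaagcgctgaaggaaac
Hspg2, chr4:137468553-137468852, plus strand: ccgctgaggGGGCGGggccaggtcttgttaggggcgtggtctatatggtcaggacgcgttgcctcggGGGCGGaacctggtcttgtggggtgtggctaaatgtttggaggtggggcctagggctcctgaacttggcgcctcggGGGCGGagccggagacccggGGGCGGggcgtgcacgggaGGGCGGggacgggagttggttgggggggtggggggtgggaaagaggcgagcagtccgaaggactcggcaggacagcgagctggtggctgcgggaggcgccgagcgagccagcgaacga
Agrn, chr4:156197439-156197738, minus strand: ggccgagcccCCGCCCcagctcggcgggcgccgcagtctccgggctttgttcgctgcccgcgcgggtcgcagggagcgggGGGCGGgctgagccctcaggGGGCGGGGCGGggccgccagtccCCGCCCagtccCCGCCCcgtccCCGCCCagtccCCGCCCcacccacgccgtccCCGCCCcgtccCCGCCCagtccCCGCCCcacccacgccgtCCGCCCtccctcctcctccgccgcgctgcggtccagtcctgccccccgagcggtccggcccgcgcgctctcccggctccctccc
The windows of Lamb3 and Col17a1 printed here held no match to any of the 3 motifs. Both Lamb3 windows lie inside the GENCODE span of the gene given below, at RefSeq starts downstream of the first base of that span. The windows of Lama5, Agrn, Hspg2 and Col7a1 held 4, 12, 5 and 1 GC boxes, and the second window of Agrn held 2. Over 32851 windows of 300 bases, 35.7% held a GC box, 20.2% an E-box and 7.81% an AP-1 site. The window of Lama5 and the second window of Lamb3, which are not printed, held 2 E-boxes each. These counts describe letters in a window and not binding.

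**Figure D1:**
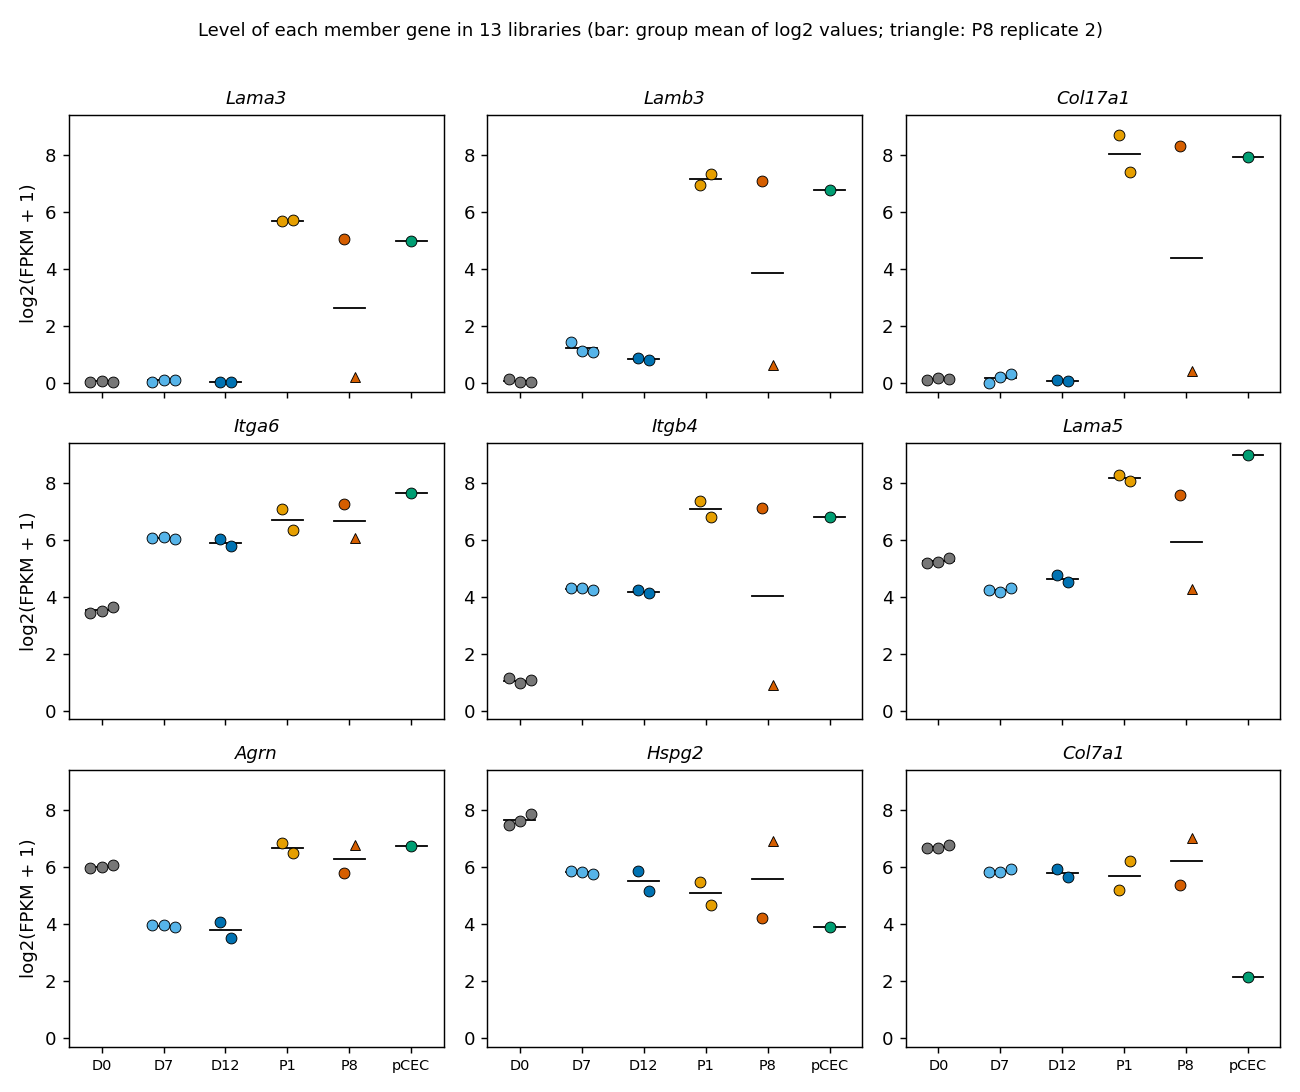
Level of each gene as log2(FPKM + 1) (vertical axis) in the 6 groups (horizontal axis). Each point is 1 library, the bar is the group mean of the log2 values and the triangle is P8 replicate 2. Lama3, Lamb3 and Col17a1 lie near 0 in D0, D7, D12 and P8 replicate 2 and high in P1, P8 replicate 1 and pCEC, whereas Hspg2 and Col7a1 are lowest in pCEC.

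Laminin-332 is the ligand of the hemidesmosome. Lama3 (chromosome 18 from 12333819 to 12583013, plus strand, GENCODE M21 on GRCm38 as for all positions) encodes its alpha chain. Its level was 0.0324, 0.0517 and 0.0407 FPKM in D0, 0.0397, 0.0772 and 0.0889 FPKM in D7, and 0.0222 and 0.0398 FPKM in D12, which is 3 to 13 reads per library. It was 50.2 and 51.4 FPKM in P1 (9124 and 4134 reads), 32.1 and 0.152 FPKM in P8 and 30.7 FPKM in pCEC. Both P1 libraries, P8 replicate 1 and pCEC lay above every other library, and P8 replicate 2 lay near the fibroblasts. The difference of P1 against D12 was 5.65 ± 1.16 on the log2 scale (limma adjusted p = 0.00522).

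Lamb3, the beta chain (chromosome 1 from 193207699 to 193343878, plus strand), stood at 0.113, 0.0226 and 0.0297 FPKM in D0, 1.74, 1.18 and 1.14 FPKM in D7, and 0.842 and 0.767 FPKM in D12. It reached 122 and 161 FPKM in P1, 134 and 0.541 FPKM in P8 and 110 FPKM in pCEC. The groups D0, D7 and D12 did not overlap, although D7 rested on 38 to 60 reads. The D7 difference from D0 was 1.15 ± 1.26 on the log2 scale and not called (limma adjusted p = 0.518), but it was called higher without P8 replicate 2 (SE 0.14, adjusted p = 0.000229). Hsd11b1, an enzyme that activates glucocorticoids, lies on the opposite strand within the Lamb3 gene and stood at 49.3 to 50.4 FPKM in D7 and 0.234 to 0.321 FPKM in D0. Whether the counting used strand is not given in the sources used here, and whether exons of the pair overlap was not examined. The part of Hsd11b1 reads in the low D7 level of Lamb3 was not tested. In P1, Hsd11b1 was at 0.418 and 3.52 FPKM, far under Lamb3. Against D12, Lamb3 was higher in P1 by 6.29 ± 1.54 (limma adjusted p = 0.0115), a call lost without D12 replicate 1 (adjusted p = 0.0512) or D12 replicate 2 (adjusted p = 0.0628).

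Of the receptor chains, Itga6 was already higher at D7. Itga6 (chromosome 2 from 71745616 to 71858416, plus strand), the alpha chain, also pairs with the integrin beta 1 chain. Its level was 9.73, 10.2 and 11.6 FPKM in D0, 64.9, 66.9 and 63.2 FPKM in D7 and 63.3 and 53.2 FPKM in D12, then 133 and 80.0 FPKM in P1, 151 and 66.0 FPKM in P8 and 198 FPKM in pCEC. Every library after D0 lay above every D0 library, P8 replicate 2 included. Itga6 was called higher in D7 than in D0 (log2 fold change 2.52 ± 0.29, limma adjusted p = 0.00019), in all 3 D7 libraries. The further step in P1 against D12 was 0.82 ± 0.35 and was not called (limma adjusted p = 0.0908). Without P8 replicate 2 it was again 0.82, under the fold limit. With P1 replicate 2 left out it passed, at a log2 fold change of 1.19 that rested on 1 P1 library.

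Itgb4 (chromosome 11 from 115974709 to 116008412, plus strand), whose long tail docks plectin, was at 1.19, 0.95 and 1.11 FPKM in D0, 18.6, 18.6 and 17.8 FPKM in D7, and 17.7 and 16.5 FPKM in D12. It stood at 162 and 110 FPKM in P1, 139 and 0.865 FPKM in P8 and 110 FPKM in pCEC. D7 did not overlap D0, and P8 replicate 2 was the lowest of all 13 libraries. The D7 difference from D0 was 3.21 ± 1.21 and not called (limma adjusted p = 0.0617). Leaving out P8 replicate 2 gave an SE of 0.133, and it was then called higher (adjusted p = 6.56e-07). The P1 difference from D12 was 2.89 ± 1.49 and not called (limma adjusted p = 0.147), and it was called higher without P8 replicate 2 (adjusted p = 2.89e-06).

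The ratio of the 2 receptor chains differed between the groups. Per length, the ratio of Itga6 to Itgb4 was 8.18 to 10.7 in D0, 3.50 to 3.61 in D7 and 3.23 to 3.58 in D12. It was 0.825 and 0.729 in P1, 1.09 in P8 replicate 1 and 1.79 in pCEC. In P8 replicate 2 the ratio was 76.3, the highest of the 13 libraries, with Itga6 at 66.0 FPKM and Itgb4 at 0.865 FPKM. The tetraspanin Cd151, which associates with laminin-binding integrins, was called higher in D7 than in D0 (129 ± 1.15 FPKM, against 52.0 ± 3.43 FPKM, SD, n = 3 each, log2 fold change 1.29 ± 0.21, limma adjusted p = 0.00158).

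**Figure D2:**
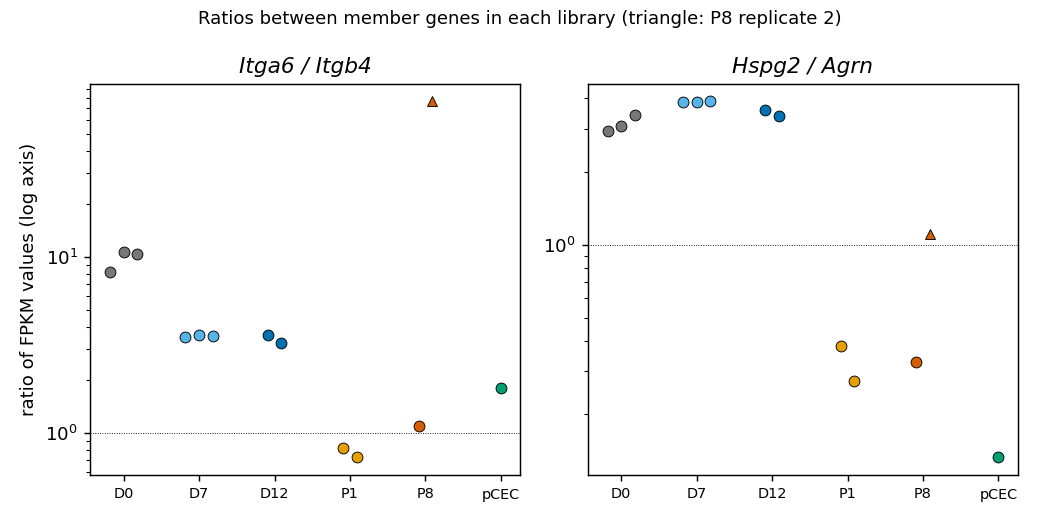
Ratio of FPKM values (vertical axis, log scale) of Itga6 to Itgb4 and of Hspg2 to Agrn in each library, by group (horizontal axis); the dotted line marks a ratio of 1 and the triangle P8 replicate 2. Itga6 exceeds Itgb4 in D0, D7 and D12 and lies below it in both P1 libraries, and Hspg2 exceeds Agrn in D0, D7, D12 and P8 replicate 2 only.

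Col17a1 (chromosome 19 from 47646344 to 47692094, minus strand), the transmembrane collagen of the junction, had the widest range of the 9 genes on the log2(FPKM + 1) scale. It was at 0.0856, 0.137 and 0.108 FPKM in D0, 0, 0.153 and 0.235 FPKM in D7 and 0.0782 and 0.0421 FPKM in D12. The 0 in D7 replicate 1 allows a level of up to 0.0525 FPKM (3 reads, counting error only). Its level was 413 and 168 FPKM in P1 (28411 and 5102 reads), 320 and 0.341 FPKM in P8 and 243 FPKM in pCEC. No library of D0, D7 or D12 exceeded 13 reads, and none overlapped P1. P1 exceeded D12 by 7.96 ± 1.91 on the log2 scale (limma adjusted p = 0.0104). The call was lost without D12 replicate 2 (adjusted p = 0.0581) and without P1 replicate 1 (adjusted p = 0.0565), and it held without P8 replicate 2 (adjusted p = 7.31e-07).

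The plakins that tie the junction to keratin filaments were lower in D7. Dst, which encodes dystonin, was at 10.2, 10.1 and 10.2 FPKM in D7, against 31.4, 34.5 and 41.9 FPKM in D0 (log2 fold change -1.71 ± 0.32, limma adjusted p = 0.00308). Plec, which encodes plectin, was at 27.6, 26.4 and 27.6 FPKM in D7, against 64.8, 65.4 and 72.1 FPKM in D0 (-1.28 ± 0.39, adjusted p = 0.0265). Both fell in D7, in all 3 libraries. In P1, Dst was at 61.7 and 35.7 FPKM, against 14.1 and 10.2 FPKM in D12, and was called higher (1.89 ± 0.40, adjusted p = 0.00585). Plec was highest in P8 replicate 2, at 166 FPKM. Both genes serve many cell types through several isoforms, which the table does not separate.

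Col7a1 (chromosome 9 from 108953586 to 108984875, plus strand), the anchoring fibril gene, was highest in fibroblasts by group mean. It was at 101, 102 and 108 FPKM in D0, 56.3, 56.3 and 60.2 FPKM in D7, 60.6 and 49.7 FPKM in D12, 35.7 and 73.4 FPKM in P1, 40.3 and 130 FPKM in P8, and 3.46 FPKM in pCEC. The pCEC library was lower than every other and P8 replicate 2 was the highest. The D7 difference from D0 was -0.84 ± 0.39 and not called (limma unadjusted p = 0.0601), although all 3 D7 libraries lay below all 3 D0 libraries. The pCEC library was called lower than P1 (-3.55 ± 0.59, adjusted p = 0.0119). That call rested on the spread of the other groups. With only pCEC and P1 in the fit it was lost, and 0 of all genes were called.

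Of the basement membrane genes, Lama5 (chromosome 2 from 180176373 to 180225859, minus strand), the alpha chain of laminin-511 and laminin-521, was lowest in D7 and highest in pCEC by group mean. It stood at 35.2, 36.4 and 40.1 FPKM in D0, 17.9, 16.9 and 18.8 FPKM in D7, 26.1 and 21.7 FPKM in D12, 306 and 263 FPKM in P1, 190 and 18.2 FPKM in P8 and 494 FPKM in pCEC. D7 lay wholly below D12 and D12 below D0. P1 exceeded D12 by 3.52 ± 0.80 (limma adjusted p = 0.00819), a call lost without D12 replicate 2 (adjusted p = 0.0542). The D7 difference from D0, -1.02 ± 0.65, was not called (adjusted p = 0.25), and was called lower without P8 replicate 2 (adjusted p = 5.82e-05).

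Agrn (chromosome 4 from 156165290 to 156197488, minus strand), the agrin gene, was lowest in D7 and D12. It was at 61.2, 63.2 and 67.2 FPKM in D0, 14.9, 14.6 and 13.8 FPKM in D7, 15.8 and 10.3 FPKM in D12, 115 and 90.3 FPKM in P1, 54.3 and 109 FPKM in P8 and 105 FPKM in pCEC. The D7 and D12 libraries lay below all others. Agrn was called lower in D7 than in D0 (-2.07 ± 0.25, limma adjusted p = 0.000239) and higher in P1 than in D12 (2.90 ± 0.30, adjusted p = 0.000151), and both calls held in the 22 alternatives run. P8 differed from P1 by -0.40 ± 0.30 and was not called (adjusted p = 0.511). The difference was -0.90 ± 0.23 without P8 replicate 2 (adjusted p = 0.0336, under the fold limit) and 0.09 ± 0.23 without P8 replicate 1 (adjusted p = 0.782).

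Hspg2 (chromosome 4 from 137468769 to 137570630, plus strand), the perlecan gene, was highest in D0. It was at 179, 194 and 229 FPKM in D0, 57.4, 56.5 and 53.7 FPKM in D7, 56.9 and 35.0 FPKM in D12, 44.0 and 24.7 FPKM in P1, 17.8 and 121 FPKM in P8 and 13.9 FPKM in pCEC. Every library after D0 lay below every D0 library. D7 was called lower than D0 (-1.82 ± 0.57, limma adjusted p = 0.0307), as was P1 (-2.56 ± 0.64, adjusted p = 0.0175). Leaving out any 1 of the 6 D0 and D7 libraries ended the D7 call (adjusted p from 0.0657 to 0.0929), and leaving out P8 replicate 2 strengthened it (adjusted p = 0.000335). The ratio of Hspg2 to Agrn was 2.93 to 3.41 in D0, 3.86 to 3.89 in D7, and 3.39 to 3.60 in D12. Both P1 libraries lay under 1, at 0.381 and 0.274, P8 gave 0.328 and 1.11, and pCEC gave 0.133.

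Ranked by group mean, the order of levels differed between the genes. P1 came first for Lama3, Lamb3, Itgb4 and Col17a1, pCEC for Lama5, Itga6 and Agrn, and D0 for Hspg2 and Col7a1. For Itgb4 and Col17a1, P1 and pCEC, the first and second, overlapped, as did pCEC and P1 for Agrn. For Lama3, D7, D0 and D12 followed at the bottom with ranges that overlapped from each to the next. P8 overlapped a neighbour in rank for each of the 9 genes.

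D7 against D0 compares cells labelled neural crest with the fibroblasts they came from. The receptor gene Itga6 rose and the basement membrane genes Agrn and Hspg2 fell in D7 against D0, and 6 of the 9 genes were not called. That is 1 member higher and 2 lower, where 22.4% of all 17194 tested genes were called in either direction. Without P8 replicate 2, Itgb4 and Lamb3 were also called higher and Lama5 lower, giving 6 of 9, with 25.4% of all genes called. D12 against D0 called the same 3 genes, with 23.2% of all genes called, and the Hspg2 call (-2.13 ± 0.64, limma adjusted p = 0.0271) was lost without any 1 of the D0 and D12 libraries (adjusted p from 0.056 to 0.181). Without P8 replicate 2, Itgb4 made it 4 of 9 in D12 against D0, with 26.9% of all genes called. The 9 fibroblast markers summed to 3390 to 3410 FPKM in D7, against 22300 to 23200 FPKM in D0, and the 8 macrophage markers to 8.38 to 13.2 FPKM, against 1140 to 1210 FPKM. Cd68 held most of the D7 macrophage sum, at 8.02 to 12.3 FPKM, and stood at 43.3 to 51.7 FPKM in D0. The fibroblast sum was carried by a few abundant genes such as Col1a1, and Pdgfra, Lum and Dcn of the same list averaged 370, 74.7 and 121 FPKM in D7, against 177, 31.5 and 107 FPKM in D0. The part of these markers in the falls of Agrn and Hspg2 was not tested, and in bulk RNA fewer cells of a type and less RNA per cell cannot be told apart.

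No member passed the test between D12 and D7. D12 against D7 gave 0 calls among the 9 members, and 0.291% of all genes were called. By limma, 0 members had an unadjusted p under 0.05, and limma voom on the recovered reads called 0 as well. The widest member difference on the log2 scale was that of Lama5, 0.40 ± 0.73 (limma adjusted p = 1).

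P1 against D12 compares the cells labelled induced corneal endothelial with the later stage labelled neural crest. Lama3, Lamb3, Col17a1, Lama5 and Agrn were called higher in P1 than in D12, 5 of 9 members, with 0 lower, beside 27.4% of all genes called in either direction and 14.8% called higher. Without P8 replicate 2, Itgb4 joined them, giving 6 of 9, with 32.7% of all genes called. The median log2 fold change of the 9 members was 2.90, beside 0.11 over all genes tested. Col7a1 and Hspg2 stood at -0.10 ± 0.48 and -0.42 ± 0.70 and were not called (limma adjusted p = 0.901 and 0.655). The same count was 2 when D12 replicate 2 was left out, with Lama3 and Agrn remaining, and 2 by limma voom on the recovered reads, with Lama5 and Agrn remaining. Leaving out D12 replicate 2 left 1 D12 library, and fewer of all genes were called in that fit too. By voom 5228 of all genes were called, in place of 4705. The summed level of the 7 epithelial markers was 7090 to 9660 FPKM in P1, against 4.10 to 5.73 FPKM in D12. Its part in the rise of the hemidesmosome genes was not tested.

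Set against the starting fibroblasts, P1 had 6 members called higher and 1, Hspg2, lower, where 19.6% of all genes were called, and pCEC had the same 6 higher and both Hspg2 and Col7a1 lower, where 23.0% were called. The 6 were Lama3, Lamb3, Lama5, Itga6, Itgb4 and Col17a1. Both comparisons share the D0 libraries. In P1 they were higher by 5.63 ± 1.06, 7.07 ± 1.41, 2.90 ± 0.73, 3.18 ± 0.32, 6.01 ± 1.36 and 7.89 ± 1.74 on the log2 scale, in the order named. In pCEC the values were 4.93 ± 1.34, 6.71 ± 1.78, 3.70 ± 0.92, 4.12 ± 0.41, 5.74 ± 1.72 and 7.78 ± 2.2, and leaving out any 1 of the D0 libraries cut the calls from 8 to 4, with adjusted p from 0.0507 to 0.0745 for Lama3, Lamb3, Itgb4 and Col17a1. In P1, 7 calls became 4 without P1 replicate 1, when Lama5, Itgb4 and Col17a1 were lost (adjusted p = 0.0677, 0.0504 and 0.0511), and 5 without P1 replicate 2, when Lama5 and Hspg2 were lost (adjusted p = 0.0676 and 0.105). Lama5 was also lost without D0 replicate 1 or D0 replicate 2 (adjusted p = 0.0528 and 0.0529), and Hspg2 without D0 replicate 3 (adjusted p = 0.0558). Calls over all genes moved too. Without 1 D0 library they were 2327 to 2390 in P1, in place of 3365, and 2923 to 2966 in pCEC, in place of 3952. The fits without a P1 library rested on 1 P1 library, and all-gene calls rose without replicate 1 and fell without replicate 2. By limma voom on the recovered reads P1 had 5 calls, without Itgb4 and Col17a1 (adjusted p = 0.0524 and 0.124). In pCEC, Itgb4 was also lost without any 1 of the D7 or D12 libraries (adjusted p from 0.0548 to 0.0555). Both comparisons, when P8 replicate 2 was left out, had 8 calls, since Col7a1 was then also called lower in P1, with 25.0% of all genes called in P1 and 30.9% in pCEC.

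pCEC against P1 compares the library labelled primary with the induced cells. Of the 9 genes, Col7a1 was called lower in pCEC (3.46 FPKM, against 35.7 and 73.4 FPKM in P1) and the other 8 were not called, where 2.71% of all genes were called. Without P8 replicate 2 it remained the 1 member called, with 8.23% of all genes called. Lama5 was 494 FPKM in pCEC, against 306 and 263 FPKM in P1, a difference of 0.80 ± 0.98 (limma adjusted p = 0.765). Hspg2 was 13.9 FPKM in pCEC, against 44.0 and 24.7 FPKM in P1 (-1.19 ± 0.86, limma adjusted p = 0.545). With 1 pCEC library, assumed to vary like the other groups, a difference that was not called does not show that the levels were alike. In pCEC the epithelial markers summed to 3400 FPKM and the fibroblast markers to 29.4 FPKM, against 7090 to 9660 FPKM and 474 to 1120 FPKM in P1.

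**Figure D3:**
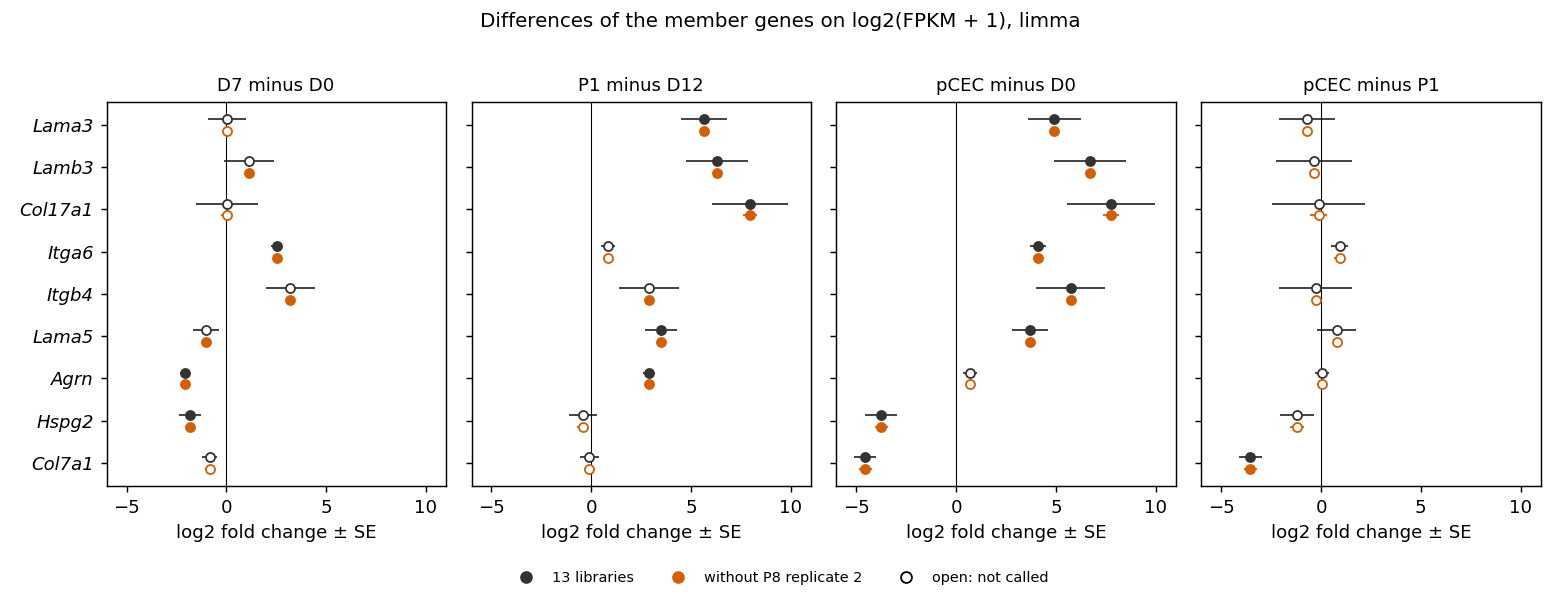
Log2 fold change of each gene (horizontal axis, on FPKM + 1, bars ± SE) in 4 comparisons, with all 13 libraries (black) and without P8 replicate 2 (orange); filled points were called. The estimates match in both fits and the SE is smaller without P8 replicate 2, which adds calls for Lamb3, Itgb4 and Lama5 in D7 and for Itgb4 in P1.

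The 2 P8 libraries differed in every one of the 9 genes. In P8 replicate 1, Lama3, Lamb3, Col17a1, Itga6 and Itgb4 stood at 32.1, 134, 320, 151 and 139 FPKM. In P8 replicate 2 they stood at 0.152, 0.541, 0.341, 66.0 and 0.865 FPKM, while Col7a1, Agrn and Hspg2 were at 130, 109 and 121 FPKM, against 40.3, 54.3 and 17.8 FPKM in replicate 1. Itga6 of replicate 2 lay above its D0 level of 9.73 to 11.6 FPKM. Lama3, Lamb3 and Col17a1 of replicate 2 also lay above every D0 library, on 27, 22 and 23 reads, and Itgb4 lay below. P8 against P1 gave 0 calls among the members by limma, where 1.37% of all genes were called, with 2 members (Lama3 and Lama5) at an unadjusted p under 0.05 and 0 calls by limma voom.

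The result depended on which P8 library was used. With P8 replicate 1 as the only P8 library, 0 members were called against P1 (7.71% of all genes called), and the differences of Itgb4, Col17a1 and Itga6 were 0.06 ± 0.20, 0.28 ± 0.43 and 0.55 ± 0.26. In that fit Lama3, Lama5 and Agrn were lower in P8 by less than the fold limit, at -0.65 ± 0.12, -0.57 ± 0.14 and -0.90 ± 0.23 (limma adjusted p = 0.00955, 0.034 and 0.0336). Lamb3, Col7a1 and Hspg2 stood at -0.06 ± 0.21, -0.34 ± 0.34 and -0.86 ± 0.35 (adjusted p = 0.884, 0.543 and 0.149). With P8 replicate 2 as the only P8 library, Lama3, Lamb3, Lama5, Itgb4 and Col17a1 were called lower and Col7a1 and Hspg2 higher, 7 of 9 members (22.2% of all genes called). The Col17a1 difference was then -7.62 ± 0.43 (limma adjusted p = 5.46e-06) and that of Hspg2 1.85 ± 0.35 (adjusted p = 0.0044). In these fits the lone P8 library was assumed to vary like the other groups. The macrophage and fibroblast markers of replicate 2 summed to 879 and 4190 FPKM, against 57.6 and 68.1 FPKM in replicate 1. Cd68 alone was 57.5 FPKM of the macrophage sum of replicate 1. The part of these markers in the difference was not tested.

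**Figure D4:**
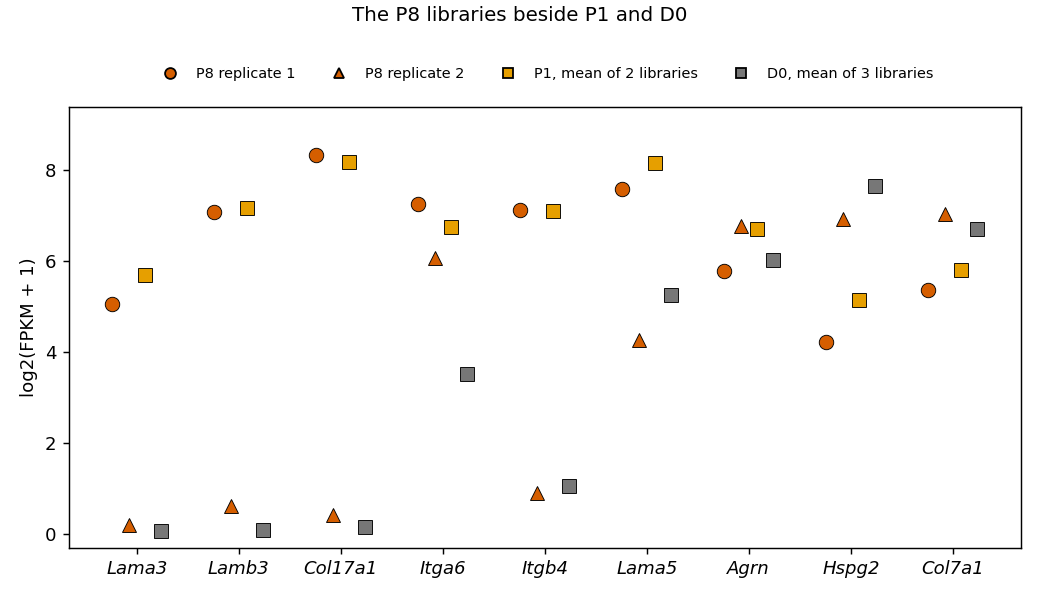
Level of each gene as log2(FPKM + 1) (vertical axis) in P8 replicate 1 (circle), P8 replicate 2 (triangle), P1 (orange square, log2 of the mean FPKM of 2 libraries) and D0 (grey square, of 3 libraries). Replicate 1 lies with P1 and replicate 2 with D0 for Lama3, Lamb3, Col17a1 and Itgb4, and Itga6 of replicate 2 lies between P1 and D0.

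The other genes of the pathway were counted from a list. Of 34 listed genes of hemidesmosome linkers, laminins, type IV collagens, basement membrane linkers and receptors, 32 were tested (Lama1 and Frem2 stayed under 1 FPKM). In D7 against D0, 4 were called higher and 9 lower, with a median log2 fold change of -0.515, beside -0.005 over all genes tested. Of all genes, 22.4% were called in either direction. Col4a1, a type IV collagen of most basement membranes, was at 163 ± 1.29 FPKM in D7, against 1031 ± 67.4 FPKM in D0 (SD, n = 3 each). Col4a1 fell by 2.65 ± 0.82 on the log2 scale (limma adjusted p = 0.0285), and the difference of Col4a5 was -2.57 ± 0.48 (adjusted p = 0.00302). Col18a1, the collagen that carries endostatin, rose to 608 ± 2.47 FPKM in D7, against 35.2 ± 0.726 FPKM in D0 (SD, n = 3 each, 4.08 ± 0.33, adjusted p = 2.27e-05). In D12 against D0, 3 were called higher and 9 lower, where 23.2% of all genes were called. Lama2, the alpha chain of muscle laminin, fell by 3.07 ± 0.56 in D12 (limma adjusted p = 0.00297).

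In P1 against D12, 12 of the 32 were called higher and 2 lower, with a median of 0.74, beside 0.11 over all genes. Of all genes, 27.4% were called in either direction and 14.8% higher. For the fit without P8 replicate 2, the share is the one given with the members above. Fermt1, which encodes the integrin activator kindlin-1 of epithelia, was at 23.6 and 35.1 FPKM in P1, against 0.0436 and 0 FPKM in D12 (4.87 ± 0.81, limma adjusted p = 0.00185). Bcam, a receptor of laminin alpha 5, was at 165 and 142 FPKM in P1, against 11.7 and 11.7 FPKM in D12 (3.60 ± 1.05, adjusted p = 0.0236). Of the 7 receptors, 5 were called higher and none lower. Of the 7 genes tested from the list of other laminin chains, 1 was called higher (Ntn4, named after its values were seen) and 0 lower. Ntn4 encodes a netrin and not a laminin chain, so no laminin chain of that list was called. When P8 replicate 2 was left out, 14 of the 32 were called higher and 4 lower, Lamb1 (also named after its values were seen) among the lower at -1.26 (limma adjusted p = 9.36e-06).

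In P1 against D0, 13 of the 32 were called higher and 7 lower, where 19.6% of all genes were called. In pCEC against D0, 8 were called higher and 8 lower, where 23.0% were called. These comparisons share the D0 libraries. Lama4, an alpha chain of mesenchymal and vascular basement membranes, was at 1.26 FPKM in pCEC, against 106, 110 and 114 FPKM in D0 (-5.61 ± 1.15, limma adjusted p = 0.00776). Col4a1 was at 38.7 FPKM in pCEC, against 982, 1004 and 1108 FPKM in D0 (-4.70 ± 1.16, adjusted p = 0.0165). Of the 34 genes, 1 was called lower in P8 than in P1, and 1 lower in pCEC than in P1, Lamc3 in each. It was at 0.0168 and 0.2 FPKM in P8 and 0.254 FPKM in pCEC, against 1.21 and 1.91 FPKM in P1. Of all genes, 1.37% were called in P8 against P1 and 2.71% in pCEC against P1. For the fit without P8 replicate 2, the shares are those given with the members above. When P8 replicate 2 was left out, 8 of the 32 were called lower in P8 than in P1, Lama4 and Col4a1 among them, and 0 higher. In the same fit 8 were called lower in pCEC than in P1, again with Lama4 and Col4a1 among them, and 0 higher, and pCEC against D0 had 9 higher and 12 lower.

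**Figure D5:**
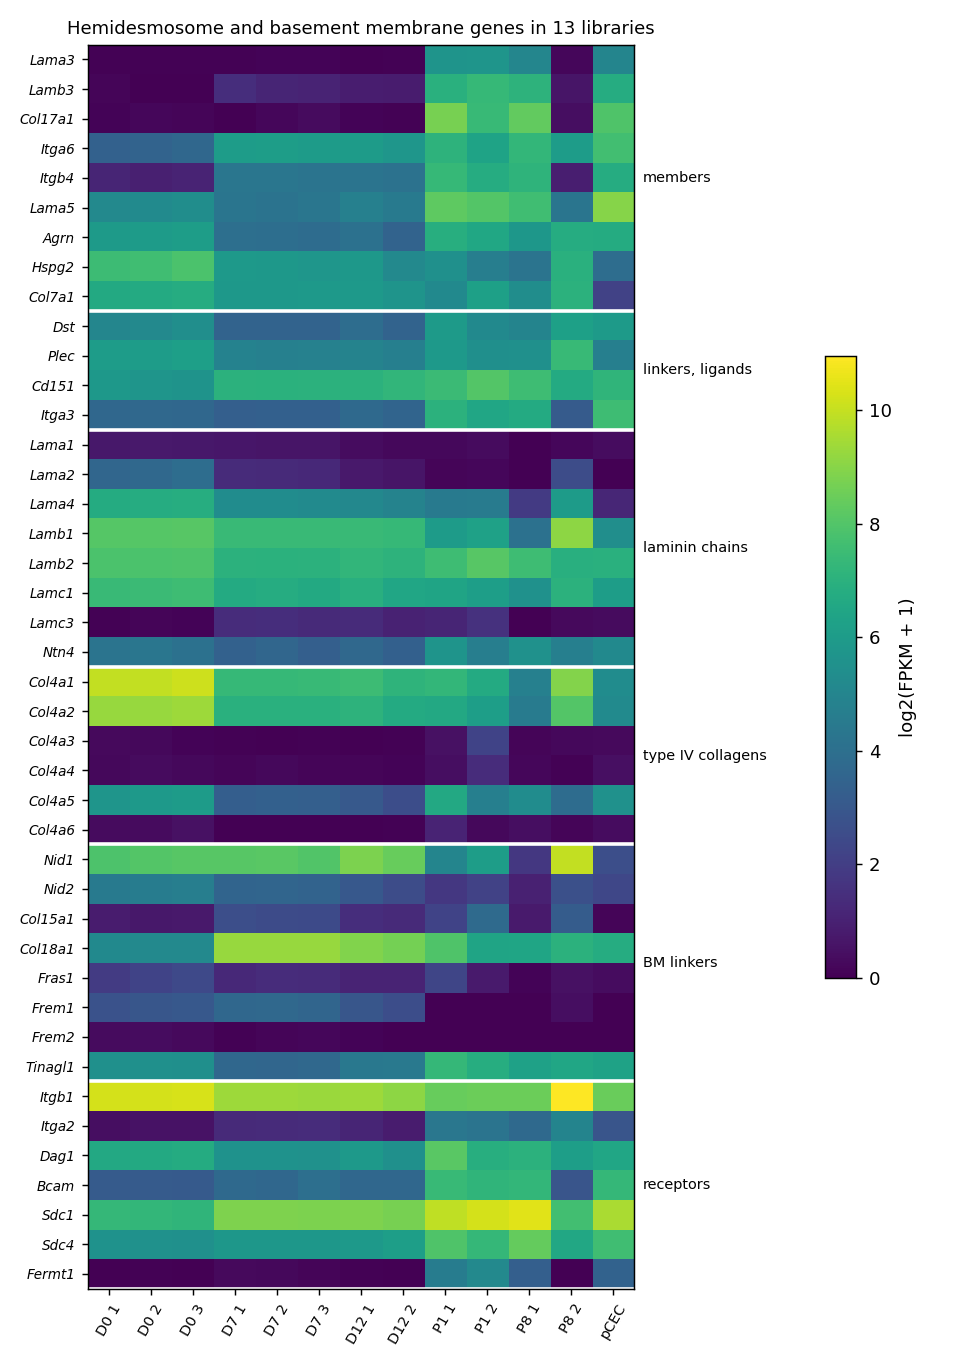
Level of the 9 members and of listed pathway genes as log2(FPKM + 1) (colour) in the 13 libraries (columns), ordered by role from the 9 members at the top to the receptors at the bottom. Lama3, Lamb3, Col17a1, Itga3, Bcam and Fermt1 are high in P1, P8 replicate 1 and pCEC, while Col4a1 and Col4a2 are highest in D0 and next in P8 replicate 2.

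The genes whose pattern was most like that of the junction were named by correlation of log2(FPKM + 1) over the 13 libraries, which share group structure, so the values are a description. To the mean of Lama3, Lamb3, Itga6, Itgb4 and Col17a1, the nearest were Map7 (Pearson's r = 0.993), Bcam (0.993), F11r (0.991), Urah (0.991) and Sel1l3 (0.991). Map7 was at 54.8 and 68.7 FPKM in P1, 79.3 and 1.39 FPKM in P8 and 0.337 to 0.513 FPKM in D0. To the mean of Lama5, Agrn and Hspg2, the nearest were Klf7 (0.994), Strn (0.993), Kdm2a (0.990), Brd3 (0.989) and Atl3 (0.988). These 3 members do not share a pattern (r = -0.599 between Lama5 and Hspg2, 0.061 between Agrn and Hspg2 and 0.674 between Lama5 and Agrn), so their mean is the pattern of no single member. Klf7 was at 1.04 to 1.32 FPKM in D7 and 5.76 to 8.73 FPKM in D0. Among the members themselves, Lama3, Lamb3 and Col17a1 had r of 0.985 to 0.994 with each other, and Hspg2 had r of -0.894 with Itga6 and -0.92 with Itgb4.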

How the data were processed

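FPKM values of 13 libraries, as the authors deposited them, were the starting point. Libraries were made from total RNA with a TruSeq kit, per the labels' protocols. The submitters' processing notes name Bowtie 0.12.2, mm8 and mm10, without saying which build was used for what. No value column was left unused. The 9 genes and the other lists were chosen with earlier results of these data known.

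The column of gene IDs follows the lines of D0. In each other group the line order was that of a hash table of 131072 slots, and a gene was placed where that order allowed it and where FPKM times length times library total lay within 0.001 of a whole number. Lengths were mean transcript lengths of GENCODE M21 (GRCm38) or, for Col17a1, the length that made its D0 values whole. With the IDs of D0 hidden, 25307 of 25320 placed genes were right with 3 libraries, 24142 of 24154 with 2 and 21565 of 21606 with 1. With 1 library, 99.0% of genes at 1 FPKM or more were right. Lengths had been checked against these same D0 values, which makes this check easier than placing the other groups. With lengths left unchecked for 20% of genes, 93.5% of those at 1 FPKM or more were right with 3 libraries and 93.0% with 1. Genes unresolved in some group (2628) and genes at 0 in 1 whole group but at a mean of 1 FPKM or more in every other (103) were left out of the tests, leaving 51501. Lum is one of the 103, and its values enter the fibroblast marker sums.

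The test was limma 3.58.1 in R 4.3.3 on log2(FPKM + 1), with 1 mean per group, 7 residual degrees of freedom, a trended prior and Benjamini-Hochberg adjustment, on genes with at least 1 library at 1 FPKM. It was tested on simulated data. Named were the 9 members, the 3 called genes of the pathway list with the widest log2 fold change in each comparison, always Dst, Plec and Cd151, and the 5 nearest genes to each mean, at 5 FPKM or more in some library. The limit from 3 reads covers counting error only. One listed pathway gene enters the counts and is not reported here by name. Alternatives were other pseudocounts, filters, scaling, fits and libraries left out.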

Additional observations from a re-analysis of the deposited data

How the results depend on the processing

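The calls were repeated under 22 alternatives. Of the repeated member differences, 1464 kept direction and side of the threshold, 26 gained a call, 55 lost one and 21 changed sign. With only the 2 groups compared in the fit, D7 against D0 had 6 members called in place of 3, with 4480 of all 17194 genes called in place of 3858. The fit of pCEC and P1 alone had 0 members in place of 1. It called 0 of all genes in place of 466, so it says nothing particular to the member. By limma voom on recovered reads, P1 against D12 had 2 in place of 5, pCEC against D0 had 5 in place of 8 and P1 against D0 had 5 in place of 7. Of all genes, voom called 5228, 4327 and 3605 in these comparisons, in place of 4705, 3952 and 3365. Leaving out 1 library at a time gave 2 to 6 calls in D7 against D0, 2 to 6 in P1 against D12, 4 to 8 in P1 against D0, 0 to 7 in P8 against P1 and 4 to 8 in pCEC against D0. Calls over all genes moved in these fits too, and several of the fits left 1 library in a group. Without 1 of the D0 or D7 libraries, D7 against D0 had 3223 to 3576 of all genes called, in place of 3858. The causes were not tested.

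The differences that changed sign were not called in either fit. For D7 against D0, Col17a1 became -0.03 with a pseudocount of 0.1, -0.05 without D7 replicate 3 and -0.74 by voom. With libraries left out in turn, D12 against D7 ranged from -0.21 to 0.07 for Col7a1, -0.44 to 0.13 for Agrn and -0.66 to 0.03 for Hspg2. P1 against D12 ranged from -0.61 to 0.41 for Col7a1 and was 0.04 without D12 replicate 1. P8 against P1 ranged from -0.64 to 0.55 for Itga6, -6.17 to 0.06 for Itgb4, -7.62 to 0.28 for Col17a1, -0.34 to 1.33 for Col7a1, -0.90 to 0.09 for Agrn and -0.86 to 1.85 for Hspg2, and Itgb4, Col17a1, Col7a1 and Hspg2 were called without P8 replicate 1. pCEC against P1 ranged from -0.55 to 0.01 for Itgb4, -0.76 to 0.53 for Col17a1 and -0.14 to 0.21 for Agrn. With median-of-ratios scaling, Itga6 in P8 against P1 became 0.00 and Agrn in pCEC against P1 became -0.04.

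Same-numbered replicates did not pair clearly: the correlation of their deviations lay between -0.232 and 0.176 over 21 pairs, with 2 over 0.1. In a group of 2 libraries the deviations mirror each other, so pairs among D12, P1 and P8 repeat their values. The 2 over 0.1 are such a repeat, 0.176 for D12 with P1 under both replicate numbers. With the replicate number as a block, 2 members were called in D7 against D0, 2 in D12 against D0, 0 in D12 against D7, 5 in P1 against D12, 6 in P1 against D0 and 0 in P8 against P1. Of all genes, 3677, 3421, 35, 4319, 2596 and 100 were called, in the same order. Depth limits Lama3 and Col17a1 in D0, D7 and D12, where no library had over 13 reads of either.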
